A study of Mus musculus with 6 samples.

Results

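The genes described here are 30 markers of bile duct epithelium and of the ductular reaction, read from a mouse liver RNA sequencing experiment with 6 libraries. They were taken by gene symbol from the deposited count table, which lists 22183 genes, and all 30 were found. Of these, 29 passed the filter on low counts and were tested, and 1 (Dmbt1) did not pass it. The list joins biliary keratins, junction and adhesion proteins, transcription factors, transporters, surface and progenitor markers and genes of the primary cilium. The study compared 3 liver samples labelled PBS with 3 labelled DOX, and the title of the series points to butyrylcholinesterase and hepatic stellate cells as its subject. All 6 samples were BucheKI/KI-Hep by genotype and had DDC treatment. The labels do not spell out PBS, DOX or DDC. The series describes Buche, whose gene is listed as Bche, as overexpressed in hepatocytes. The promoter that drives it, the age and sex of the mice, doses and the meaning of the prefix S2W in the sample titles are unknown here. Because the PBS samples also carried the knock-in and received DDC, no library shows these genes in an uninjured liver, and an effect of the DOX agent cannot be told apart from an effect of raised butyrylcholinesterase. Nothing in the labels says that the 3 livers of a group came from separate mice, so a p-value here reflects variation among these libraries, possibly technical.

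Cholangiocytes are the epithelial cells that line the bile ducts. They seal the duct with claudins and E-cadherin, adjust bile by secreting chloride, bicarbonate and water, and sense flow through a primary cilium. When bile flow is blocked or ducts are injured, strings of immature duct-like cells spread from the portal tracts. This ductular reaction is recognised by keratin 7, keratin 19, Epcam, Sox9 and osteopontin (Spp1). Some of its markers, Sox9 and osteopontin among them, can also appear in injured hepatocytes, so a whole-liver measurement does not say which cell holds the RNA.

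Total counts per library ran from 32476725 to 41921404. Bche was higher in every DOX library, at 1938, 1867 and 1763 CPM (read counts scaled to a common library size, here with TMM factors), than in the PBS libraries, at 177, 177 and 206 CPM. This gave a log2 fold change of 3.31 with an SE of 0.14 (adjusted p = 1.65e-07). Unless another is named, each adjusted p comes from the edgeR quasi-likelihood test, corrected by the Benjamini-Hochberg method. Over the 14681 genes tested, 27.5% passed at an adjusted p under 0.05, with 14.0% lower and 13.5% higher in DOX libraries. With scaling by library size alone, the all-gene median shifted from -0.01 to -0.16 (log2), and higher genes made up 23.1% of the calls in place of 48.9%. Marker lists of other cells gave the following setting. Hepatocyte markers summed to 88020 to 92687 CPM in PBS and 90578 to 115070 CPM in DOX libraries, with 3 of 10 higher and 0 lower. Stellate cell and portal fibroblast markers summed to 1641 to 1987 CPM in PBS and 974 to 1354 CPM in DOX libraries, with 8 of 13 lower. Markers of cycling cells summed to 35.5 to 53.2 CPM in PBS and 11.4 to 19.1 CPM in DOX libraries, with 7 of 8 lower. Of 8 pancreas markers in the table, 7 stayed under 1 CPM in every library, Cela3b and Cpa1 among them. Gut and gallbladder markers summed to 48.6 to 57.3 CPM in PBS and 13.6 to 27.4 CPM in DOX libraries, with Fabp2 and Vil1 lower among 4 tested and Cdx1, Reg3g, Muc2 and Tff1 under 1 CPM throughout. The part of these other cells in the results below was not tested.

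Of the 29 tested bile duct genes, 8 fell, 1 rose and 20 did not pass, which sets 27.6% lower beside the 14.0% of all tested genes that were lower and 3.45% higher beside 13.5%. The genes that fell were the transcription factors Sox9, Sox4 and Elf3, the keratin Krt23, the cadherin Cdh6, the collagen receptor Ddr1, the chloride channel Cftr and the cilium gene Pkhd1. By the point estimates, each lay between 30.8% and 48.5% below its PBS level, which is less than a 2-fold change. For Krt23, Cftr, Sox9, Elf3 and Sox4 the 95% interval reached past a 2-fold fall, with lower ends from -1.41 to -1.15 (log2). A change smaller than 2-fold was therefore not shown for these genes. The intervals of Cdh6, Ddr1 and Pkhd1 did not reach a 2-fold fall. Aqp1, the water channel, was the 1 that rose. The keratins 7 and 19, Epcam, the claudins, E-cadherin and Spp1 did not pass. The list median was -0.23 on the log2 scale, against -0.01 for all tested genes. The groups did not overlap in 10 of the 29 genes, in either direction, beside 44.1% of all tested genes. An unadjusted edgeR p under 0.05 was reached by 11 of the 29 (37.9%, beside 40.0% of all tested genes). In 7 of the 8 genes that fell (all but Krt23) the call was also made in each of 13 alternative analyses. Whether fewer duct cells, less RNA per duct cell or a change in other cells that hold the RNA lay behind a lower value cannot be told apart in whole tissue.

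**Figure D1:**
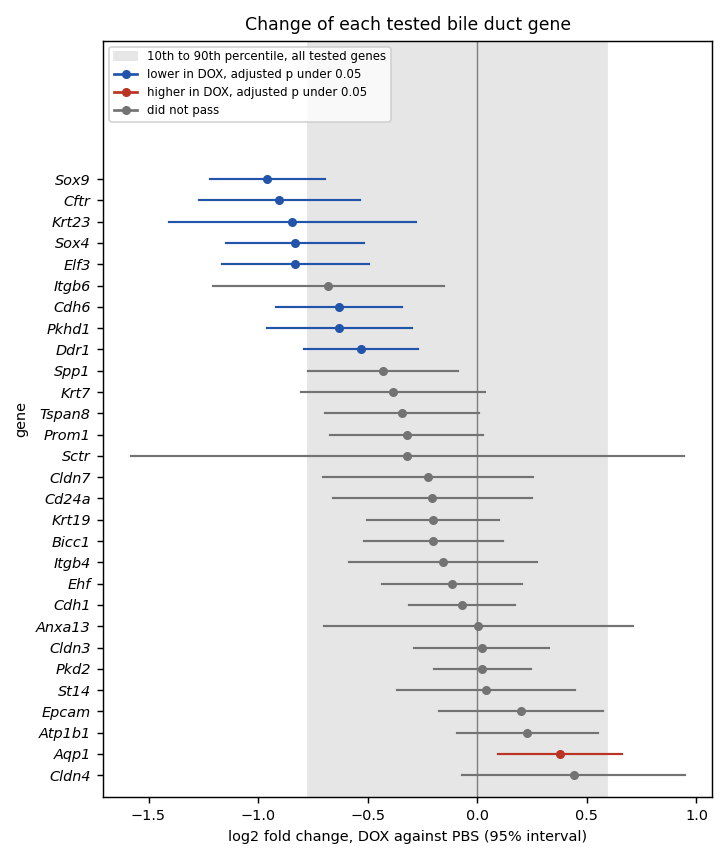
Log2 fold change of DOX against PBS libraries for the 29 tested bile duct genes, with 95% intervals from the edgeR fit (3 libraries per group). The shaded band holds the middle of all tested genes, from the 10th to the 90th percentile. The 8 genes that fell lie between -0.96 and -0.53, and Aqp1 is the only gene marked as higher.

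The transcription factors of the list direct duct fate and epithelial differentiation, and 3 of 4 fell, beside 14.0% of all tested genes. A share of only 4 genes is coarse. Sox9, which marks duct cells and liver progenitors and takes part in duct formation, stood at 20.5, 24.5 and 21.4 CPM in PBS 1 to 3 and at 11.9, 11.2 and 11.1 CPM in DOX 1 to 3. The DOX libraries were close to each other and all lay below all PBS libraries. The log2 fold change of Sox9 was -0.96 (SE 0.12, adjusted p = 0.000475), a level 48.5% below that of PBS libraries. Sox4, a relative of Sox9 that acts with it in the developing ducts, was measured at 35.7, 35.5 and 27.5 CPM in PBS and 21.7, 15.8 and 17.999 CPM in DOX libraries. The groups did not overlap, although PBS 3 was lower than the other PBS libraries (log2 fold change -0.83, SE 0.14, adjusted p = 0.0023). Elf3, an epithelium-specific factor of the ETS family, went from 9.6, 9.7 and 11.7 CPM to 6.32, 5.36 and 5.75 CPM (log2 fold change -0.83, SE 0.15, adjusted p = 0.00311). Its relative Ehf, also an epithelial ETS factor, stood at 23.9, 17.3 and 16.9 CPM in PBS and 19.3, 17.2 and 17.0 CPM in DOX libraries. For Ehf the groups overlapped and the gene did not pass (log2 fold change -0.12, 95% interval -0.44 to 0.20, adjusted p = 0.59). In the assembly GRCm38.p6 Sox9 spans positions 112782210 to 112787757 of chromosome 11, Sox4 28948919 to 28953699 of chromosome 13, and Elf3 135253574 to 135258472 of chromosome 1. In GENCODE M21, exons of antisense genes overlap those of Sox4, Elf3, Cftr, Pkhd1 and Ddr1, and it is not known whether counting used strand, so reads of the partners cannot be told apart.

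**Figure D2:**
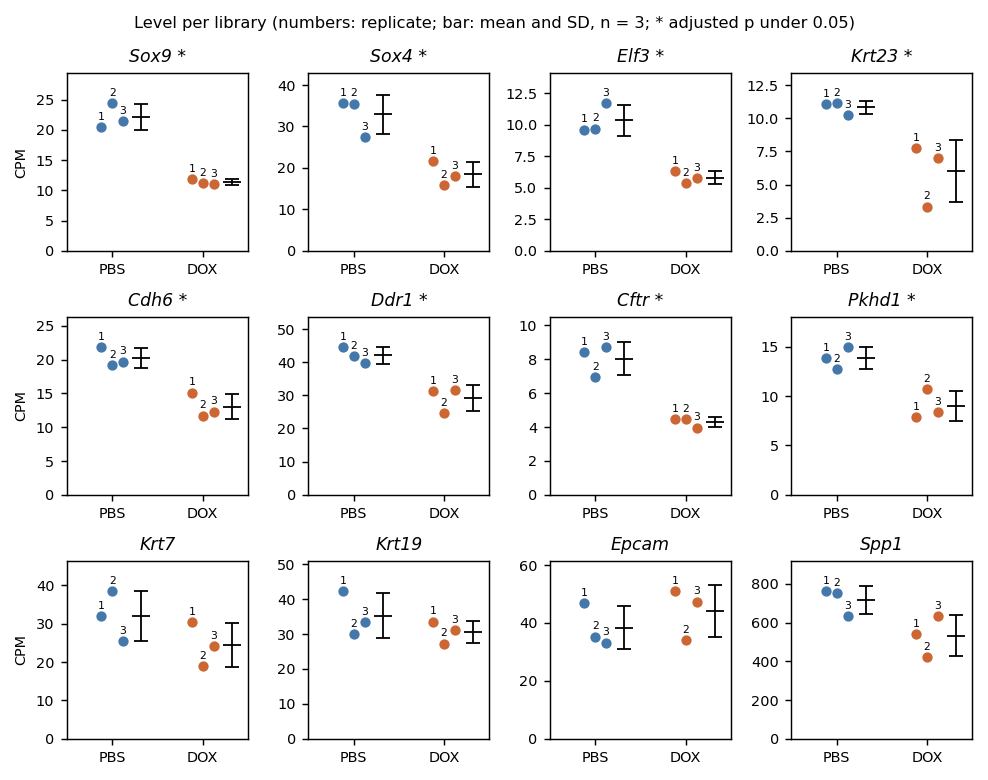
CPM of 12 bile duct genes in each library, with points numbered by replicate and bars at the mean and SD (n = 3 per group). The 8 genes of the upper 2 rows are those called lower, and in each the 3 DOX libraries lie below the 3 PBS libraries. Over all tested genes, 22.3% were apart in this direction. In the lowest row, which holds Krt7, Krt19, Epcam and Spp1, the groups overlap.

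Keratins are the intermediate filaments of epithelia, and keratins 7 and 19 are the classical stain for bile ducts. Krt7 was measured at 31.99, 38.6 and 25.4 CPM in PBS and 30.5, 19.0 and 24.1 CPM in DOX libraries. Krt19 was measured at 42.4, 30.03 and 33.4 CPM in PBS and 33.6, 27.3 and 31.1 CPM in DOX libraries. For both, the groups overlapped and the test was not passed, with a log2 fold change of -0.38 (95% interval -0.80 to 0.04, adjusted p = 0.158) for Krt7 and of -0.20 (95% interval -0.50 to 0.10, adjusted p = 0.294) for Krt19. The intervals leave room for a fall of up to 0.80 on the log2 scale in Krt7, so an equal level was not shown. Krt23, a stress-induced keratin of liver epithelium, went from 11.03, 11.2 and 10.3 CPM to 7.73, 3.33 and 6.98 CPM. All DOX libraries lay below the PBS libraries, with DOX 2 lowest (log2 fold change -0.85, SE 0.25, adjusted p = 0.032). This call did not hold with PBS 1 (adjusted p = 0.0793), PBS 2 (0.0848), PBS 3 (0.0709) or DOX 3 (0.0501) left out, with values between 0.00568 and 0.0848 across the 13 alternatives. Krt8 and Krt18, the keratin pair that hepatocytes and duct cells share, also fell, with log2 fold changes of -0.80 and -0.56 (adjusted p = 0.00121 and 0.00493).

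The stretches upstream of the annotated starts of 6 of the genes that fell are shown to put their sequences side by side. They lie at chr13:28953714-28953949 (Sox4), chr1:135258569-135258722 (Elf3), chr11:99493138-99493370 (Krt23), chr15:13173676-13173925 (Cdh6) and chr1:20618065-20618307 (Pkhd1), all on the minus strand, and at chr6:18170437-18170686 (Cftr) on the plus strand. They come from the RefSeq promoter table for GRCm38.p6, which holds 19 of the 30 genes, 7 of them among those that fell. Each is written 5′ to 3′ on the strand of the gene and ends before the start site or, where GENCODE M21 annotates an exon there, before that exon, so the lengths run from 154 to 250 bases. Cdh6 and Pkhd1 are shown at starts inside their annotated spans. Capitals mark matches, on either strand, to short motif cores of factors known in duct cells. The letters searched were GGAATG for TEAD proteins, the DNA partners of YAP, ACAAAG for SOX proteins with ACAATG as their variant form, GTTAAT for HNF1 factors, GTGGGAA for RBPJ, which carries Notch signals, and CCGGAA for ETS factors.
Sox4: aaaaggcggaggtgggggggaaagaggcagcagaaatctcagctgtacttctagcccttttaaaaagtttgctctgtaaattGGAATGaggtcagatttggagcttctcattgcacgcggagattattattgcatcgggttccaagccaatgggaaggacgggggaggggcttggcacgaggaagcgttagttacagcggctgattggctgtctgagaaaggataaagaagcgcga
Elf3: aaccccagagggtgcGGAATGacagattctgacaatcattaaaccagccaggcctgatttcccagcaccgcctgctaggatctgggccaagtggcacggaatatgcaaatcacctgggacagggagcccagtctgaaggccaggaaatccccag
Krt23: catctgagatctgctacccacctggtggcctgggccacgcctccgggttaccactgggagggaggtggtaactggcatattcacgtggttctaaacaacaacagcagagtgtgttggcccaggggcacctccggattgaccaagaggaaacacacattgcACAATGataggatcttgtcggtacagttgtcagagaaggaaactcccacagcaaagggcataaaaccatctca
Cdh6: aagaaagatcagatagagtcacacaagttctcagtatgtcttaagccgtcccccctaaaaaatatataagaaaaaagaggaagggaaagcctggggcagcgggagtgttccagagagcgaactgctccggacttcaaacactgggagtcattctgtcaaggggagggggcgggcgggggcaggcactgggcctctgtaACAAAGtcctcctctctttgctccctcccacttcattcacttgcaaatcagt
Cftr: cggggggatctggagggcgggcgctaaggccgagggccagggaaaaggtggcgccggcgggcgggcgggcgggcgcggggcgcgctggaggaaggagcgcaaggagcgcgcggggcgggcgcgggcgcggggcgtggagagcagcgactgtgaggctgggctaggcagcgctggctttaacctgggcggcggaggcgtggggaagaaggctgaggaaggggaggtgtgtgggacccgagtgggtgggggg
Pkhd1: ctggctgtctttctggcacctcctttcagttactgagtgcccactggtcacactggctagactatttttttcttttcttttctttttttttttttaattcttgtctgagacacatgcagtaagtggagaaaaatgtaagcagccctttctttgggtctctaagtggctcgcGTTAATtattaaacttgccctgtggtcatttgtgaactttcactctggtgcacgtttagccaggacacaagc
Sox4 and Elf3 hold GGAATG, beginning at -168 and -235 relative to the start. Cdh6 holds ACAAAG at -52, Krt23 holds ACAATG at -90 and Pkhd1 holds GTTAAT at -79, whereas the Cftr stretch, which is 76.4% G and C, holds none of the 6. Counted per gene over the 250 bases before any listed start, GGAATG was found in 4 of 19 bile duct genes and in 14.4% of all genes of the table. The corresponding values were 6 of 19 and 18.6% for the first SOX form, 1 of 19 and 12.2% for its variant, and 3 of 19 and 7.49% for HNF1. The ETS core was found in 2 of 19 and 13.6%, and the RBPJ core in 0 of 19 and 6.18%. Genes with several listed starts, such as Ddr1, had more sequence searched. These matches are descriptions of letters and not measured binding sites.

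The adhesion genes hold the duct wall together and fix it to its matrix, and 2 of 9 fell (22.2%, beside 14.0% of all tested genes). Cdh6, a cadherin of the developing kidney and of bile ducts, was measured at 21.9, 19.2 and 19.7 CPM in PBS and 15.1, 11.7 and 12.3 CPM in DOX libraries. Ddr1, a receptor kinase that binds collagen, was measured at 44.6, 41.8 and 39.7 CPM in PBS and 31.2, 24.6 and 31.5 CPM in DOX libraries. In both genes every DOX library lay below every PBS library, with log2 fold changes of -0.63 (SE 0.13, adjusted p = 0.00556) for Cdh6 and -0.53 (SE 0.12, adjusted p = 0.00764) for Ddr1. Ddr1 shares exon sequence with an antisense gene that has its own entry in the count table. The fall of this collagen receptor stood beside falls of the collagen genes Col1a1 and Col3a1, with log2 fold changes of -1.46 and -1.47. The part of collagen-producing cells in the Ddr1 value was not tested. Itgb6, the beta chain of an integrin that activates latent TGF-beta and is present on reactive ducts, stood at 4.56, 3.7 and 4.82 CPM in PBS and 3.25, 1.92 and 2.98 CPM in DOX libraries. The groups did not overlap, but the gene just missed the test (log2 fold change -0.68, SE 0.24, adjusted p = 0.0546). It passed in 5 of the alternatives, among them DESeq2 (adjusted p = 0.0343), and over all 13 its adjusted p ran from 0.024 to 0.154.

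The remaining adhesion genes showed no shift that the test could separate from the spread. Epcam, the adhesion molecule by which duct and progenitor cells are sorted, stood at 46.8, 35.3 and 33.2 CPM in PBS and 51.1, 34.0 and 47.4 CPM in DOX libraries (log2 fold change 0.20, 95% interval -0.17 to 0.58, adjusted p = 0.407). The tight junction claudins gave log2 fold changes of 0.02 for Cldn3, 0.44 for Cldn4 and -0.23 for Cldn7, with adjusted p of 0.936, 0.177 and 0.467. Cldn4 stood apart within its group, at 47.5 and 46.7 CPM in DOX 1 and DOX 3 and 25.0 CPM in DOX 2, against 26.8 to 32.4 CPM in PBS libraries. Without DOX 2 its log2 fold change was 0.70 (adjusted p = 0.000744). Cdh1, or E-cadherin, which hepatocytes of the portal zone also carry, gave -0.07 (95% interval -0.31 to 0.17, adjusted p = 0.677). Itgb4, the hemidesmosome integrin chain, gave -0.16 (95% interval -0.59 to 0.27, adjusted p = 0.583). The signs of Cldn3, Cldn7, Cdh1 and Itgb4 changed in at least 1 alternative, as did those of Ehf, Sctr, Anxa13, St14 and Pkd2, so no direction is given for these genes.

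Duct cells secrete through Cftr, the chloride channel mutated in cystic fibrosis, and respond to secretin through its receptor Sctr. Cftr went from 8.43, 6.96 and 8.74 CPM in PBS to 4.47, 4.45 and 3.97 CPM in DOX libraries. The DOX values were close together and below all PBS values (log2 fold change -0.90, SE 0.17, adjusted p = 0.00314), a level 46.5% lower. Sctr was near the limit of detection at 1.73, 1.03 and 0.281 CPM in PBS and 1.01, 0.442 and 0.984 CPM in DOX libraries, and its 95% interval ran from -1.58 to 0.94 on the log2 scale (adjusted p = 0.716). Aqp1, a water channel of cholangiocytes that red cells and endothelium also carry, stood at 104, 107 and 104 CPM in PBS and 157, 142 and 110 CPM in DOX libraries. DOX 3 lay only just above the PBS libraries (log2 fold change 0.38, SE 0.13, adjusted p = 0.0494). The call for Aqp1 was lost in 9 of 13 alternatives, among them library size alone (adjusted p = 0.203), limma on FPKM (0.266) and the fits that left out PBS 1 (0.133), PBS 2 (0.109), PBS 3 (0.122), DOX 1 (0.176) or DOX 2 (0.0663). Endothelial markers summed to 168 to 192 CPM in PBS and 189 to 235 CPM in DOX libraries, with 3 of 8 higher, and erythroid markers to 143 to 168 CPM and 126 to 320 CPM, with 0 of 5 tested called. Their part in the Aqp1 value was not tested. Atp1b1, a subunit of the sodium pump, gave a log2 fold change of 0.23 (adjusted p = 0.272) and passed only without PBS 1, its highest PBS library at 137 CPM (adjusted p = 0.045).

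Of the 3 genes tied to the primary cilium and to cystic disease of bile ducts and kidney, Pkhd1 fell (33.3%, beside 14.0% of all tested genes). Pkhd1 encodes fibrocystin, whose loss causes recessive polycystic kidney disease with malformed bile ducts. It was measured at 13.8, 12.7 and 14.99 CPM in PBS and 7.83, 10.7 and 8.35 CPM in DOX libraries, with no overlap (log2 fold change -0.63, SE 0.15, adjusted p = 0.0109). Pkd2, the polycystin-2 channel, stood between 34.4 and 38.6 CPM in all 6 libraries (log2 fold change 0.02, 95% interval -0.20 to 0.24, adjusted p = 0.887). Bicc1, an RNA-binding protein whose loss gives cysts, gave a log2 fold change of -0.20 (95% interval -0.52 to 0.12, adjusted p = 0.327). The interval of Pkd2 thus lay above the estimate for Pkhd1, but the difference between these genes was not itself tested.

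None of the 5 surface and progenitor markers passed with edgeR or with DESeq2. An unadjusted edgeR p under 0.05 was reached by 0 of them, beside 40.0% of all tested genes. Cd24a and Prom1, used to sort progenitor-like duct cells, gave log2 fold changes of -0.21 and -0.32 (adjusted p = 0.483 and 0.154). Tspan8, a tetraspanin of digestive epithelia, gave -0.34 (adjusted p = 0.134) and passed without DOX 3 (-0.55, adjusted p = 0.0281). The annexin Anxa13 and the membrane protease St14 gave 0.01 and 0.04 (adjusted p = 0.992 and 0.895). Anxa13 and St14 were each lowest in DOX 2, at 3.6 and 13.3 CPM, while DOX 1 and DOX 3 lay at 8.16 to 8.34 CPM and 22.03 to 22.4 CPM.

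The secreted proteins of the list were osteopontin and Dmbt1. Spp1 encodes osteopontin, a matrix-bound cytokine made by duct cells and, in injury, by macrophages. It was measured at 765, 752 and 634 CPM in PBS and 540, 424 and 634 CPM in DOX libraries. PBS 3 and DOX 3 stood at the same level, so the groups met, and the gene did not pass (log2 fold change -0.43, SE 0.16, adjusted p = 0.0612). Without DOX 3 it passed with -0.57 (adjusted p = 0.0332), as it did with DESeq2 (adjusted p = 0.0239), without the filter on low counts (0.0196), by library size alone (0.0195) and with limma on FPKM (0.0403). Macrophage markers summed to 1252 to 1340 CPM in PBS and 1414 to 1761 CPM in DOX libraries, with 2 of 10 higher and 2 lower. Dmbt1, a scavenger protein of mucosal surfaces and injured ducts, reached the minimum count in too few libraries to be tested. It was uneven, with raw counts of 0, 0 and 662 in PBS 1 to 3 and 46, 1 and 0 in DOX 1 to 3. A count of 0 in PBS 1 allows a level of up to 0.0691 CPM, for counting error only, against 15.5 CPM in PBS 3. No fold change is given for this gene, since its PBS mean rests on PBS 3.

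**Figure D3:**
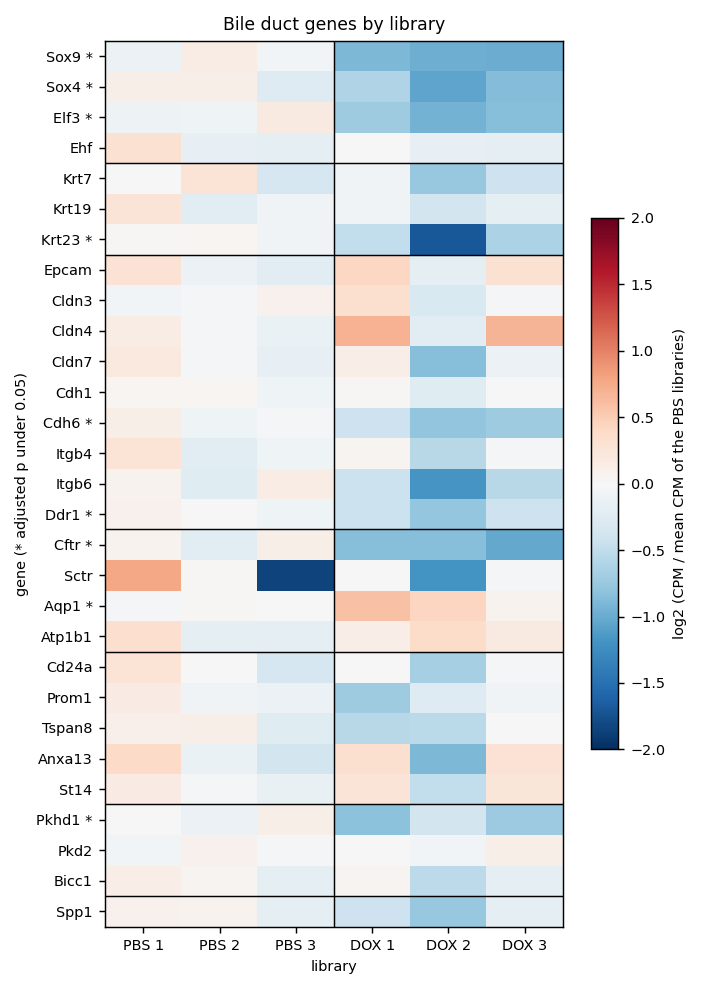
Log2 ratio of each library's CPM to the mean CPM of the 3 PBS libraries for the 29 tested genes, ordered by role and separated by lines, with a star at genes that passed. All 3 DOX columns lie below the PBS mean for Sox9, Sox4, Elf3, Krt23, Cdh6, Ddr1, Cftr and Pkhd1. The same holds for Itgb6, Spp1, Krt7, Krt19, Prom1, Tspan8 and Ehf, which did not pass, in some of them only just. DOX 2 holds the lowest value among the 3 DOX columns in 21 of 29 genes.

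Levels can be compared between genes only per length of transcript, for which the deposited FPKM values (reads scaled by gene length and library total, with no TMM factor) serve. Spp1 had the highest level at 457 ± 58.9 FPKM in PBS and 305 ± 66.2 FPKM in DOX libraries (SD, n = 3 each). Cldn3 came next at 90.5 ± 2.42 FPKM in PBS libraries, followed by Atp1b1 at 44.5 ± 10.5, Aqp1 at 40.2 ± 1.72, Cdh1 at 34.7 ± 2.72 and Cd24a at 34.3 ± 7.86 FPKM (SD, n = 3). Atp1b1 and Aqp1 were closer than the SD of Atp1b1, and Cdh1 and Cd24a closer than the SD of either, so these neighbours do not differ beyond their spread. Krt19, Krt7 and Epcam came next at 26.3 ± 4.97, 21.4 ± 4.98 and 19.7 ± 4.08 FPKM. The genes that fell lay lower in this order: Krt23 at 7.38 ± 0.555, Sox4 at 7.29 ± 1.24, Sox9 at 5.64 ± 0.639, Elf3 at 5.45 ± 0.459, Ddr1 at 3.84 ± 0.32, Cdh6 at 1.89 ± 0.157, Cftr at 1.34 ± 0.132 and Pkhd1 at 0.955 ± 0.0509 FPKM in PBS libraries. Krt23 and Sox4 were closer than the SD of either, as were Sox9 and Elf3. Genes that did not pass lay in the same range, among them Anxa13 at 5.02 ± 1.47, St14 at 4.44 ± 0.596, Ehf at 4.32 ± 0.939 and Pkd2 at 2.86 ± 0.207 FPKM. Sctr was lowest at 0.254 ± 0.183 FPKM.

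The DOX libraries were not alike in the duct genes. DOX 2 was the lowest of the 3 DOX libraries in 21 of the 29 tested genes and DOX 1 the highest in 22 of 29, while over all tested genes DOX 2 was the lowest DOX library in 37.0%. Across all 6 libraries, DOX 2 held the lowest value for 19 of the 29 genes, beside 2074 of all 14681 tested genes. PBS 1 held the highest value for 13. For the counts of highest values, the share over all tested genes was not taken. The summed level of the 30 genes was 1902, 1792 and 1624 CPM in PBS 1 to 3 and 1648, 1316 and 1646 CPM in DOX 1 to 3, with PBS 3 below DOX 1 and DOX 3. Spp1 made up much of this sum, and without it the sums were 1137, 1040 and 990 CPM in PBS and 1108, 893 and 1012 CPM in DOX libraries. Without DOX 2 the number of genes that fell was 8 and the list median -0.10 on the log2 scale, against 8 and -0.23 with it. The calls of lower genes therefore stood without DOX 2, whereas the median of the list moved toward 0.

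To set the genes against duct content in the same library, each level was divided by the geometric mean of Krt7 and Krt19, a ratio that library scaling cannot change. This measure was chosen after the values were known. The Sox9 ratio was 0.556, 0.719 and 0.734 in PBS 1 to 3 and 0.371, 0.492 and 0.405 in DOX 1 to 3. The Sox4 ratio was 0.969, 1.04 and 0.943 in PBS and 0.678, 0.693 and 0.657 in DOX libraries, and the Cftr ratio 0.229, 0.204 and 0.300 in PBS and 0.14, 0.196 and 0.145 in DOX libraries. Of the 27 bile duct genes with such a ratio, 7 had every DOX ratio below every PBS ratio (25.9%, beside 6.06% of all tested genes). These 7 were Sox9, Sox4, Elf3, Krt23, Cdh6, Ddr1 and Cftr, all of which had already been called lower in the same libraries, so their direction is not independent of that call. Among genes called lower, the ratios were apart in this direction in 7 of the 8 bile duct genes (87.5%) and in 37.3% of the 2054 others. A share of only 8 genes is coarse. In the other direction, the ratios of Epcam, Cldn4, Aqp1, St14 and Bicc1 were higher in every DOX library, as they were for 30.8% of all tested genes. With Epcam added to the reference, Cldn4 alone of these 4 others remained apart on the higher side, while Aqp1, St14 and Bicc1 overlapped, and on the lower side Itgb6 joined the same 7 genes. The Epcam ratio was 1.27, 1.04 and 1.14 in PBS and 1.6, 1.49 and 1.73 in DOX libraries. For 3 libraries against 3, an exact two-sided permutation test cannot give a p below 0.1, so these ratios describe unequal change within libraries and pass no threshold. Both keratins had negative log2 fold changes themselves, and how far they follow the number of duct cells was not tested.

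**Figure D4:**
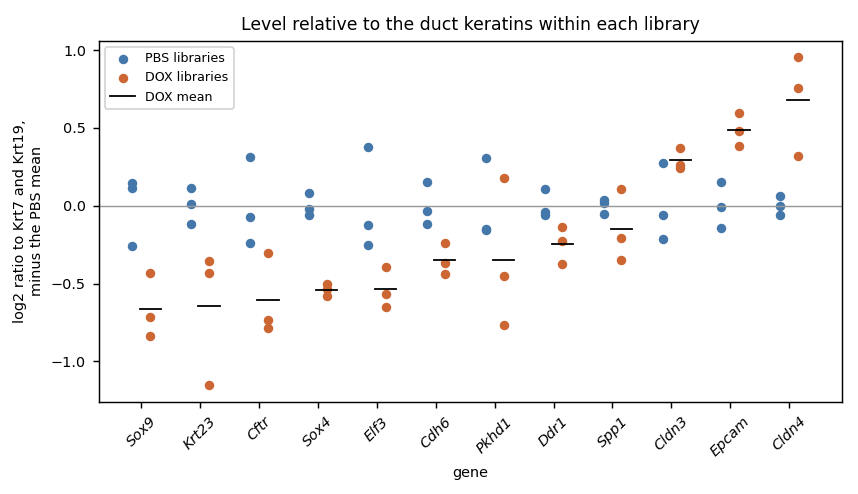
Log2 ratio of 12 genes to the geometric mean of Krt7 and Krt19 within each library, shown relative to the mean of the 3 PBS libraries, with a line at the DOX mean. The DOX points lie below all PBS points for Sox9, Krt23, Cftr, Sox4, Elf3, Cdh6 and Ddr1, and above them for Epcam and Cldn4.

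Further genes of duct biology were read from the same test. Of 34 tested genes of biliary epithelium outside the 30, 8 fell, 2 rose and 24 did not pass, with a median of -0.20 on the log2 scale. That is 23.5% lower and 5.88% higher, beside 14.0% and 13.5% of all tested genes. Beside Krt8 and Krt18, the secreted chaperone Clu and the growth factor Pdgfa, a mitogen for mesenchymal cells, fell with log2 fold changes of -0.63 and -0.69 (adjusted p = 0.00458 and 0.00482). Krt8 and Krt18 are shared with hepatocytes, and the part of hepatocytes in the values of this list was not tested. The other genes that fell were Onecut2, Muc1, Slc10a2 and Sorbs2, each of which lost its call in 3 or more alternatives. Among the genes that rose was Tff3, a mucosal repair peptide, with overlapping groups (0.83, adjusted p = 0.0444), which lost its call in 8 alternatives, among them without PBS 1 (0.14), PBS 2 (0.0827), PBS 3 (0.0751), DOX 1 (0.189) or DOX 3 (0.125). The number of higher genes in this list was 5 without DOX 2 and 1 without any other library, and that of lower genes was 4 without PBS 2 and 5 without PBS 3 or DOX 1.

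Notch signalling from portal cells to their neighbours specifies ducts during development. Of 20 Notch pathway genes, Jag1, the ligand mutated in the bile duct disorder Alagille syndrome, fell and the other 19 did not pass, with a list median of 0.02. This is 5.0% lower and 0% higher, beside 14.0% and 13.5% of all tested genes. Jag1 went from 16.6, 19.2 and 14.8 CPM to 11.8, 9.7 and 10.7 CPM (log2 fold change -0.65, SE 0.14, adjusted p = 0.00625). No DOX library reached the PBS range, and the call was kept in every alternative, with an adjusted p of at most 0.0341. The receptor Notch2 gave 0.02 (adjusted p = 0.91) and the target Hes1 -0.40 (adjusted p = 0.267). At an unadjusted p under 0.05, 6 of the 20 passed in either direction (30%, beside 40.0% of all tested genes), and DESeq2 called 1 higher and 1 lower. The list gave 3 higher genes without DOX 2, 1 without PBS 1 or PBS 2, and 4 lower genes by library size alone.

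YAP, the effector of the Hippo pathway, drives duct cell growth through TEAD factors. Of 22 genes of this pathway, 5 fell and 0 rose, 22.7% lower beside the 14.0% of all genes, with a median of -0.15. The YAP target Ccn1 went from 44.1, 47.6 and 51.6 CPM to 31.4, 21.2 and 28.7 CPM (log2 fold change -0.82, adjusted p = 0.00223). The target Ankrd1 went from 10.7, 15.5 and 9.86 CPM to 5.53, 3.54 and 7.14 CPM (log2 fold change -1.16, adjusted p = 0.00851). The groups were apart in both, while a further target, Ccn2, did not pass (-0.04, 95% interval -0.33 to 0.24, adjusted p = 0.834). Ajuba (-0.58, adjusted p = 0.00592), Axl (-0.36, adjusted p = 0.0262) and Yap1 itself (-0.33, adjusted p = 0.0449) also fell. DESeq2 likewise called 5 lower and 0 higher, and 8 of the 22 had an unadjusted edgeR p under 0.05 in either direction (36.4%, beside 40.0% of all tested genes). Yap1 lost its call without PBS 2 (0.117), PBS 3 (0.166), DOX 1 (0.121) or DOX 3 (0.141), and Axl without PBS 1 (0.0725), PBS 2 (0.101), PBS 3 (0.0502) or DOX 3 (0.1). Of the pathway, 3 genes fell when PBS 2, PBS 3 or DOX 3 was left out and 3 with the replicate number as a block. Stellate cells also express several of these genes, and the part of the lower stellate markers in these values was not tested.

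Ligands and receptors that promote ductular growth were tested for 16 of 20 listed genes, of which 3 fell and 1 rose (median -0.22). The shares, 18.8% lower and 6.25% higher, stand beside 14.0% and 13.5% of all tested genes. Tgfa, a ligand of the EGF receptor, the receptor Fgfr2 and the oncostatin M receptor Osmr fell, with log2 fold changes of -0.57, -0.50 and -0.45 (adjusted p = 0.00605, 0.00931 and 0.0173). Osmr lost its call without PBS 2 (0.0633), PBS 3 (0.0631) or DOX 1 (0.056). Egf rose, from 0.23, 0.137 and 0.0234 CPM to 0.662, 0.707 and 1.17 CPM (log2 fold change 2.66, SE 0.61, adjusted p = 0.00874), levels near the filter on low counts. Without DOX 2, 5 genes of this list fell, and the counts that fell were 2 without PBS 2, PBS 3 or DOX 1. Tnfrsf12a, the receptor for the duct mitogen TWEAK, did not pass (-0.03, adjusted p = 0.923).

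**Figure D5:**
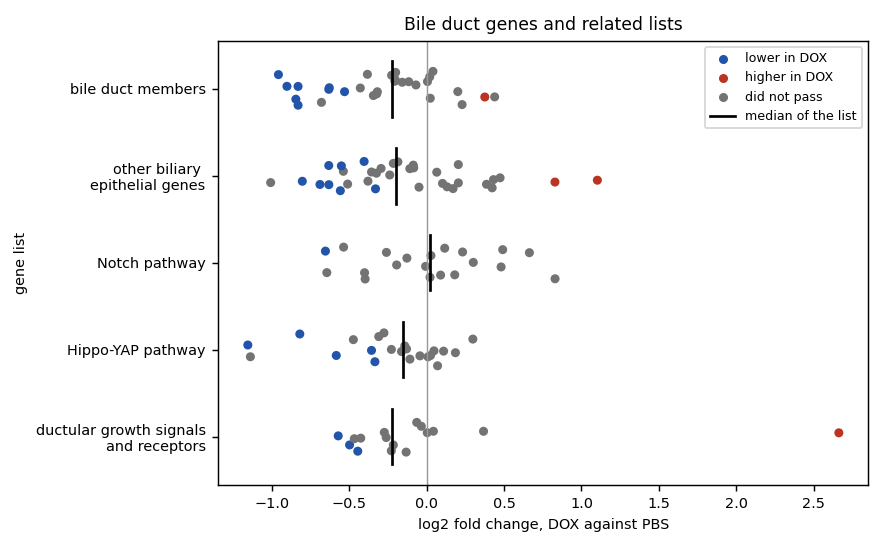
Log2 fold change of DOX against PBS libraries for each tested gene of the bile duct list and of 4 related lists, coloured by the call, with a line at each list median. The medians run from -0.23 for the bile duct genes to 0.02 for the Notch pathway, and the point farthest to the right is Egf.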

How the data were processed

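Liver RNA of 6 samples was sequenced, after RNeasy extraction and SMARTER mRNA library preparation per the labels' protocols. The authors deposited raw counts per gene symbol and FPKM values per gene for the same libraries. Dividing counts by FPKM gave the same gene length in every library, whole to a tolerance of 0.01 bases in 99.9% of genes, and the deposited FPKM are thus a rescaling of the same counts. Builds named in the submitters' processing notes are GRCm38, mm10 and hg38, without saying what each was for. The aligner, the counter, the strand setting and the annotation were not given in the sources used here. All rows named a gene.

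Counts were tested with edgeR 4.0.16 (R 4.3.3): filterByExpr with a minimum count of 10 and a minimum total of 15, TMM scaling, robust quasi-likelihood fit with group as the only term, and Benjamini-Hochberg adjustment over 14681 genes, called at an adjusted p under 0.05. The SE is the coefficient divided by the root of the F statistic. Intervals cover 95% and no molecular identifiers are mentioned, so they take no account of PCR duplicates. The procedure was also run on simulated counts with far fewer changed genes than were called here. That run does not show how the test behaves at the share of calls seen in these data. Libraries of the same group differed far beyond sampling noise, with a chi-square per degree of freedom of 30.0 to 83.9. Alternatives were other scalings, DESeq2 1.42.0, other filters, a replicate block, limma 3.58.1 on log2(FPKM + 1) and each library left out. Named genes were all 30 members, Bche, up to 4 called genes of each related list by smallest p, and, chosen after their values were seen, Tff3, Notch2, Hes1, Ccn2, Tnfrsf12a, Yap1 and the genes that spell out a small count. The members and lists were chosen with earlier results of these data known. Marker lists of mesothelium (0 of 4 tested genes called), neutrophils (2 higher and 1 lower of 5) and lymphocytes (1 lower of 6) were read in the same way. Some listed genes are not reported here.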

Additional observations from a re-analysis of the deposited data

How the results depend on the processing

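Over 13 alternatives for each tested bile duct gene (12 for Sctr), 322 of 376 values kept their direction and their side of the threshold, 13 lost a call, 13 gained one and 28 changed sign, none of the last in a gene that had been called. The main test called 1975 of all genes higher and 2062 lower, against 1028 and 3429 by library size alone and 917 and 3202 with limma on log2(FPKM + 1). Leaving out 1 library gave 1208 to 2440 and 1305 to 2348. Of the bile duct genes 8 fell, with 7 to 9 when a library was left out. The number that rose was 1 (Aqp1), 0 by library size alone, with a mean of at least 1 CPM, with the replicate block and with limma, and 0 to 1 without single libraries, where the gene was Aqp1 without DOX 3, Atp1b1 without PBS 1 and Cldn4 without DOX 2. Of the other biliary genes, 2 rose, 1 by library size alone, with the replicate block or with limma, and 1 to 5 without single libraries, while 4 to 10 fell. Of the Notch genes, 0 rose, 1 by DESeq2 or without the filter, and 0 to 3 without single libraries; 1 fell, 4 by library size alone and 3 with limma. Of the Hippo-YAP genes, 5 fell, 8 by library size alone, 3 with the replicate block and 3 to 7 without single libraries. Of the growth signals, 1 rose, 0 with a mean of at least 1 CPM, where Egf was not tested, and 3 fell, 6 by library size alone or with limma and 2 to 5 without single libraries. The causes were not tested.

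Signs changed for Cldn3 (-0.14 by library size alone, -0.0012 with the replicate block, -0.16 with limma, -0.15 to 0.17 without single libraries), Pkd2 (-0.13, and -0.098 with limma; -0.023 to 0.073), St14 (-0.12, and -0.11 with limma; -0.085 to 0.26) and Anxa13 (-0.15 by library size alone, -0.0044 without the filter, -0.0043 with a mean of at least 1 CPM, -0.048 with the replicate block, -0.16 with limma; -0.19 to 0.32). Without single libraries the range was -0.45 to 0.020 for Cldn7, -0.12 to 0.025 for Cdh1, -0.76 to 0.31 for Sctr, -0.204 to 0.063 for Ehf and -0.28 to 0.016 for Itgb4. Same-numbered PBS and DOX samples gave correlations of 0.086, -0.073 and -0.13 for numbers 1 to 3 in their deviations from the group mean. Samples of different number gave -0.13 to 0.19. No sign of pairing was seen, but with 3 libraries per group this check cannot show that the numbers do not pair them. The replicate block gave 9 lower bile duct genes, with Itgb6 added (adjusted p = 0.0468). Depth limits the sparsest tested bile duct gene, Sctr, whose interval ran from -1.58 to 0.94.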
